A study of Cunninghamia lanceolata with 3 samples.

Results

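The auxin unigenes of Cunninghamia lanceolata (Chinese fir, a conifer) are the assembled transcripts whose best protein hit carries an auxin name: auxin itself, indole-3-acetic acid, IAA, a numbered PIN or 5NG4. The search of the best-hit text took 88 of the 53590 unigenes that had a read in any of the 3 libraries. They have 47 different best hits, so several unigenes may be pieces of 1 transcript or near-identical copies, and reads that fit more than 1 copy are missing from uniquely mapped counts. No strand step is described, so reads of a gene and of an antisense partner cannot be told apart. The names come from relatives in other species and stand for a likely family, not for a tested function.

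The libraries measured messenger RNA of the vascular cambium, the sheet of dividing cells that makes wood inwards and bark outwards, at the dormant, reactivating and active stages, with 1 library per stage. All came from trees of about 16 years with a height of 15 m and a stem 12 cm across that stood under natural conditions, cut as tangential cryosections. The labels name no other treatment, and the number of trees behind a library is not stated. The libraries held 5.84 to 5.85 M uniquely mapped reads (M for mega). A single library per stage leaves no spread between replicates and no test of a difference. Ratios of RPKM (reads scaled by unigene length and library total) therefore describe these libraries, and the 95% exact intervals in parentheses cover the counting of reads only.

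Auxin made in growing shoots moves down the stem through the cambial region. PIN proteins carry it out of cells and set the direction of flow, while AUX1/LAX proteins carry it in. Inside the cell it binds TIR1/AFB F-box receptors, which mark Aux/IAA repressors for breakdown and so free the auxin response factors (ARFs) that sit on target genes. GH3 enzymes tie auxin to amino acids and IAA-amino acid hydrolases release it again, and many small proteins are known by name because auxin raises their transcripts.

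The auxin unigenes did not form a single pattern. A pair of receptors, a pair of 5NG4 unigenes and part of the auxin-induced proteins were lowest in the dormant library. Another part of the auxin-induced proteins dipped in the reactivating library, in 3 cases to 0 reads, and most of these were highest in the active one. Response factors, Aux/IAA repressors and influx carriers mostly stayed within 2-fold, as did most unigenes of the series. Aux/IAA repressors and influx carriers had only 3 measured unigenes each. Summed over the 88 unigenes, the reads were 15476, 19987 and 22485 at the dormant, reactivating and active stages, or 0.265%, 0.342% and 0.385% of all reads.

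**Figure D1:**
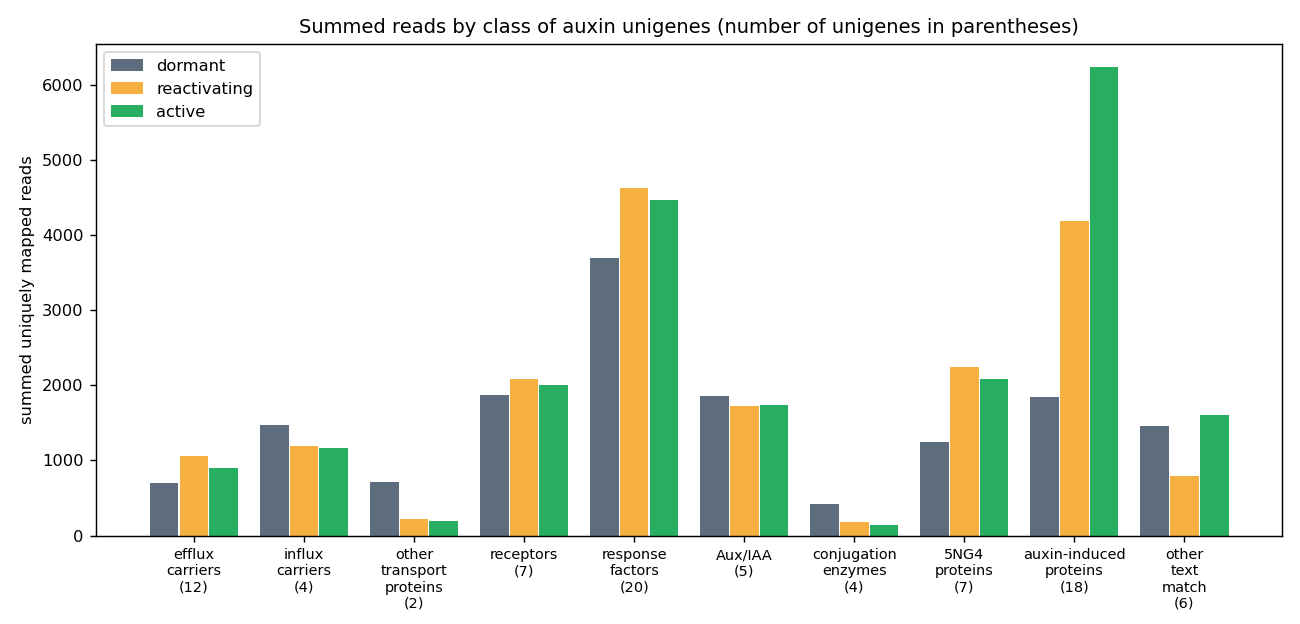
Summed uniquely mapped reads (y axis) of each class of auxin unigenes (efflux carriers: the 12 described) in the dormant, reactivating and active library, 1 library each and so without error bars. The auxin-induced proteins had the highest sum of all classes in the active library, 6232 reads, against 1849 in the dormant library.

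Of the 88 members, 70 had at least 100 reads over the 3 libraries and the other 18 had 3 to 92 reads. Of the 70, 67 are described. Reads were found in all 3 libraries for 76 members. The members were 152 to 4412 bases long with a median of 496.5, against a median of 323 over all unigenes. Their median level was 20.6, 20.7 and 31.3 RPKM in the dormant, reactivating and active libraries, against 10.9, 11.9 and 11.7 RPKM over all unigenes. The 5 members above 300 RPKM in each library, a bound set after the values were seen, were all short pieces of 169 to 255 bases, and all stayed within 2-fold between any pair of stages.

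The tissue label was set against marker names. Class III homeodomain-leucine zipper, AINTEGUMENTA, knotted, WUS and clavata names, searched as cambium and meristem markers, marked 49 unigenes, 35 of them by clavata. They had 6715, 12419 and 14424 reads at the dormant, reactivating and active stages. Without the most abundant, the class III Unigene59489, the sums were 6458, 9569 and 10397. No best hit carried the names WOX, PXY or TDIF. Markers of differentiating xylem (84 unigenes, mainly cellulose synthases and laccases) had 7951, 4881 and 31008 reads. Phloem markers (12 unigenes, callose synthases and sucrose transporters, none named phloem protein or sieve element) had 2395, 1386 and 2012 reads, and green bark markers (22 unigenes, none for the small Rubisco subunit) had 407, 377 and 276.

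A ratio was read only where the pair of libraries held 20 or more reads for a unigene, and 2-fold was the line for calling it higher or lower. In the reactivating library 18 of 71 measured members (25.4%) were higher than in the dormant library, beside 16.9% of all 36274 unigenes measured, and 13 (18.3%) were lower, beside 13.8%. In the active library 12 of 75 (16%) were higher than in the reactivating library, beside 6.76% of all, and 1 (1.33%) was lower, beside 5.14%. Set against the dormant library, the active library had 24 of 75 members (32%) higher, beside 18.1% of all, and 6 (8%) lower, beside 13.8%. The median log2 ratio of the members was 0.26, 0.08 and 0.41 in these comparisons, and that of all unigenes was 0.07, -0.06 and 0.01. The comparisons share libraries with each other and are not independent.

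Over the 3 stages, 73 members had at least 50 reads. Of these, 17 (23.3%) lay at least 2-fold below both other libraries in the dormant one, beside 12.9% of all unigenes, and 10 (13.7%) lay below both others in the reactivating library, beside 2.73% of all. The active library held 5 members (6.85%) above both others, beside 3.16% of all. These 5 were also below both others in the reactivating library, as were 19.5% of the 1008 unigenes above both others in the active one. Of the 10 low in the reactivating library they are 5, beside 22.6% of all 873 such unigenes. Among the 5, Unigene10183, Unigene11714, Unigene45720 and Unigene10182 reached 50 reads only through the active library, where they are high. Apart from Unigene10183, they held under 20 reads in the dormant and reactivating libraries together, too few for a ratio between those. The dormant library held 6 members (8.22%) above both others, a share close to the 8.10% of all unigenes. No member was set apart above both others in the reactivating library (1.37% of all) or below both others in the active library (2.08% of all), and 41 members (56.2%) were set apart in no stage, beside 73.1% of all. Among the 41 members of at least 500 bases with 50 reads, 3 (7.32%) were lowest in the reactivating library, beside 2.33% of all such unigenes, and 0 were highest in the active one.

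**Figure D2:**
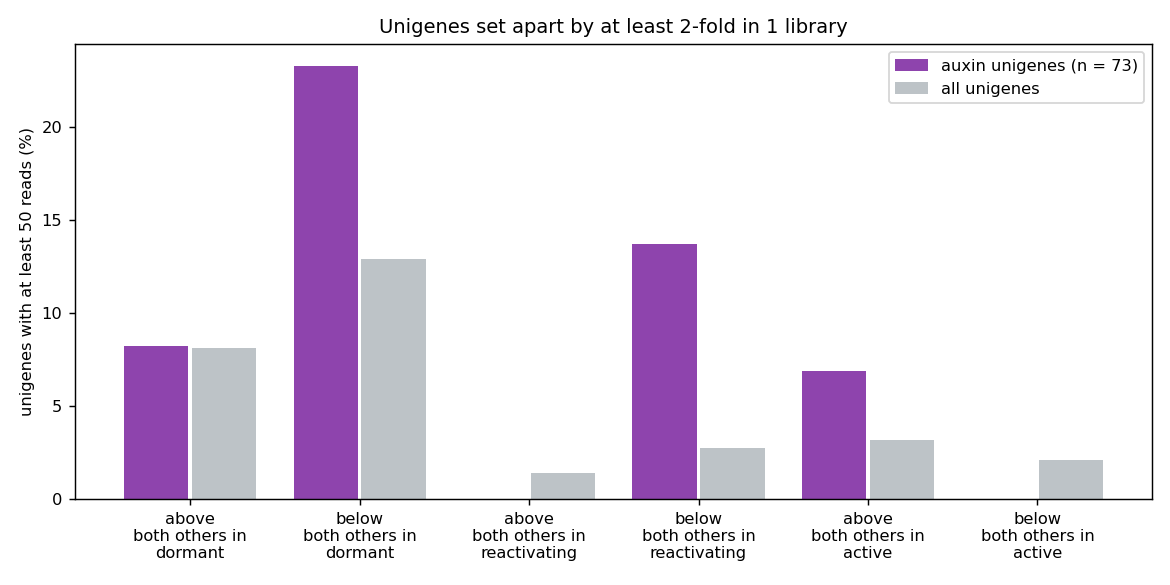
Share (y axis, percent) of the 73 auxin unigenes with at least 50 reads, and of all unigenes with at least 50 reads, that lay at least 2-fold above or below both other libraries, by stage (x axis). The bars for below both others in the reactivating library stand at 13.7% for auxin unigenes and 2.73% for all.

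The 12 efflux carrier unigenes described here are of the PIN family that carries auxin out of cells. Of 8 measured between the reactivating and dormant libraries, 2 (25%) were higher, 1 (12.5%) was lower and 5 were within 2-fold. The shares of all unigenes were 16.9% higher and 13.8% lower. The median log2 ratio of the 8 was 0.78, beside 0.07 for all unigenes. Between the active and dormant libraries 3 of 9 (33.3%) were higher and 0 lower in the active library, beside 18.1% and 13.8% of all. Their summed reads were 699, 1059 and 904 at the dormant, reactivating and active stages, highest in the reactivating library. In bulk tissue, fewer cells of a type and less RNA per cell cannot be told apart.

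The PIN-like efflux carrier of Picea abies was the best hit of 9 unigenes of 251 to 4199 bases, with 670, 1034 and 843 reads together at the dormant, reactivating and active stages. The most abundant, Unigene55775, had 47.5, 85.9 and 60.4 RPKM and was 1.81-fold higher in the reactivating than in the dormant library (1.53 to 2.15). Unigene13680, 2523 bases long, had 15.5, 16.3 and 14.1 RPKM, and Unigene11943, the longest at 4199 bases, had 3.46, 4.32 and 5.05 RPKM, so these long pieces differed little between libraries. Unigene17680 (14.4, 23.4 and 19.1 RPKM) and Unigene43204 (23.9, 45.7 and 33.4 RPKM) were within 2-fold as well, each highest in the reactivating library. Among the 7 measured with this hit, 2 were higher in the reactivating than in the dormant library, beside 16.9% of all unigenes. Both had under 100 reads in all. These are Unigene39107, with 12, 44 and 36 reads, and Unigene37573, with 14, 37 and 29 reads, named after their values were seen.

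Among the sparse efflux unigenes, a piece with the tomato SlPIN7 hit (Unigene35220) had 0, 9 and 26 reads at the dormant, reactivating and active stages. With 3 reads for the 0, this is 8.67-fold more in the active than in the dormant library (interval from 6.57 upward). The carrier-like Unigene27861 had 29, 14 and 34 reads and was the 1 efflux unigene lower in the reactivating than in the dormant library, by 2.07-fold (1.06 to 4.24). Both were named after their values were seen, and these few reads leave wide intervals.

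Influx carriers, which bring auxin into cells, were among the most abundant members per length and differed little. Of 3 measured, 0 were beyond 2-fold in any comparison. Of all unigenes, 16.9% were higher and 13.8% lower in the reactivating than in the dormant library, so 3 unigenes say little about the class. Unigene38159 had 659, 548 and 540 RPKM in the dormant, reactivating and active libraries, and Unigene24868 had 366, 287 and 283 RPKM. Unigene20297 had 135, 92.2 and 75.4 RPKM and was 1.79-fold lower in the active than in the dormant library (1.32 to 2.45). All 3 were highest in the dormant library. They are pieces of 152 to 255 bases and may belong to fewer transcripts. A remaining piece, an auxin transporter-like protein, had 2, 2 and 0 reads.

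A putative auxin:hydrogen symporter (Unigene12777), annotated in castor bean, had 711, 221 and 190 reads, or 49.7, 15.4 and 13.3 RPKM in the dormant, reactivating and active libraries. It was 3.22-fold lower in the reactivating than in the dormant library (2.76 to 3.76), with the dormant library above both others. A putative auxin transport protein had 6, 5 and 5 reads.

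**Figure D3:**
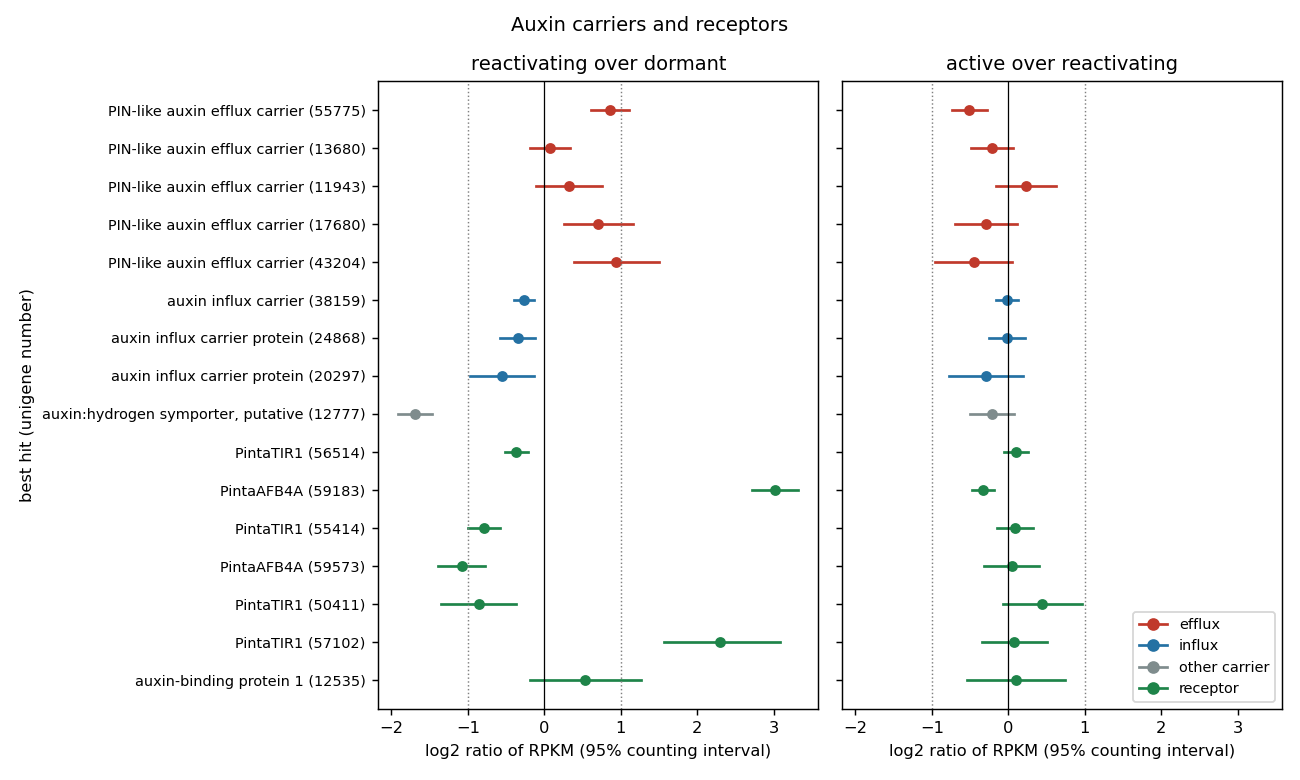
Log2 ratio of RPKM (x axis) with its 95% counting interval for the auxin carriers and receptors described with at least 100 reads, reactivating over dormant on the left and active over reactivating on the right. Dotted lines mark 2-fold. On the left PintaAFB4A Unigene59183 and PintaTIR1 Unigene57102 lie beyond 2-fold higher, and on the right every point lies within 2-fold.

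Receptors of the TIR1/AFB family had 6 unigenes with 2 best hits, both from Pinus taeda, and 1838, 2045 and 1964 reads together at the dormant, reactivating and active stages. Within this nearly level sum, members differed in opposite directions. Unigene59183, with the PintaAFB4A hit, had 103, 831 and 659 reads (10.03, 80.9 and 64.2 RPKM) and was 8.07-fold higher in the reactivating than in the dormant library (6.57 to 9.998). Unigene59573, with the same hit, had 275, 130 and 134 reads (18.4, 8.70 and 8.98 RPKM) and was 2.12-fold lower in the reactivating than in the dormant library (1.71 to 2.63). Thus the higher of these 2 unigenes per length was Unigene59573 in the dormant library and Unigene59183 in both others.

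The 4 unigenes with the PintaTIR1 hit also differed among themselves. Unigene56514, the most abundant receptor, had 162, 125 and 134 RPKM in the dormant, reactivating and active libraries, and Unigene55414 had 121, 70.1 and 74.3 RPKM. Unigene50411 had 37.4, 20.7 and 28.2 RPKM. These 3 were highest in the dormant library but within 2-fold. In contrast, Unigene57102 had 19, 93 and 98 reads and was 4.89-fold higher in the reactivating than in the dormant library (2.96 to 8.49). The auxin-binding protein 1 unigene (Unigene12535), of an auxin-binding protein outside the TIR1/AFB family, had 29, 42 and 45 reads and stayed within 2-fold. Between the active and the reactivating library, 0 of the 7 receptor unigenes were beyond 2-fold, with ratios of 0.794 to 1.36. Of all unigenes, 6.76% were higher and 5.14% lower in the active library in this comparison.

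Aux/IAA repressors had 5 unigenes, of which 3 had at least 100 reads and all 3 stayed within 2-fold in every comparison. Of all unigenes, 16.9% were higher and 13.8% lower in the reactivating than in the dormant library, so 3 unigenes say little about the class. Unigene18321, with the hit IAA10 of rice, had 144, 77.3 and 97.6 RPKM in the dormant, reactivating and active libraries and was 1.87-fold lower in the reactivating than in the dormant library (1.68 to 2.08). Unigene53180, with the IAA7 hit of Picea abies, went the other way with 126, 219 and 190 RPKM, 1.74-fold higher (1.54 to 1.97). A piece of 176 bases with a potato Aux/IAA hit (Unigene25352) had 411, 440 and 410 RPKM. Unigene56516, with the same IAA7 hit, had 10, 0 and 2 reads, too few for a comparison.

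Response factors, the transcription factors of the pathway, were the largest class with 20 unigenes, 3698, 4621 and 4466 reads at the dormant, reactivating and active stages and few members beyond 2-fold. Of 19 measured, 2 (10.5%) were higher in the reactivating than in the dormant library, beside 16.9% of all unigenes. In the active library 1 (5.26%) was higher than in the reactivating library, beside 6.76% of all. Against the dormant library 2 (10.5%) were higher in the active one, beside 18.1%. In these comparisons 0 were lower, beside 13.8%, 5.14% and 13.8% of all. The class median log2 ratio was 0.08 for reactivating over dormant and -0.06 for active over reactivating.

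The response factor with the largest difference was Unigene4536, with a cucumber ARF1 hit and the longest member at 4412 bases. It had 200, 664 and 523 reads, or 7.75, 25.7 and 20.3 RPKM in the dormant, reactivating and active libraries, and was 3.32-fold higher in the reactivating than in the dormant library (2.83 to 3.91). It was the 1 response factor set apart below both others in the dormant library.

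Names of the ARF6/8 type, transcriptional activators in Arabidopsis, covered 12 unigenes with 2421, 2899 and 2911 reads. The most abundant auxin unigene of all by reads, Unigene57970, is of this type and had 1107, 1557 and 1358 reads (165, 232 and 203 RPKM), 1.41-fold higher in the reactivating than in the dormant library (1.30 to 1.52). Unigene56503 had 105, 94.6 and 121 RPKM, lowest in the reactivating library by a small margin. Unigene51611 was 2.36-fold higher in the reactivating than in the dormant library (1.61 to 3.52), and Unigene18532 was 2.69-fold higher in the active than in the reactivating library (1.74 to 4.28). Unigene53511 had 26, 46 and 56 reads and was 2.16-fold higher in the active than in the dormant library (1.33 to 3.58). Unigene42578 had 89.2, 133 and 121 RPKM, and Unigene38692 had 25.6, 39.4 and 46.1 RPKM. The other pieces stayed closer to level, with Unigene49447 at 52.9, 37.8 and 48.6 RPKM, Unigene31990 at 78.6, 98.8 and 81.9 RPKM, and Unigene48050 at 44.7, 34.7 and 47.3 RPKM in the dormant, reactivating and active libraries. Unigene51113 had 35.1, 24.9 and 29.5 RPKM, and Unigene31640 had 38.4, 30.3 and 38.5 RPKM. All 12 were set apart in no stage.

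The remaining response factors were within 2-fold in each comparison. The ARF2/1/9 type Unigene58330 had 59.0, 62.5 and 69.8 RPKM in the dormant, reactivating and active libraries. A pair with the ARF10/16/17 name split, with Unigene7906 at 25.8, 17.9 and 15.1 RPKM and Unigene57874 at 9.61, 17.7 and 12.2 RPKM, each within 2-fold. Unigene9280, a response factor with a castor bean hit, had 24.0, 20.8 and 19.9 RPKM, and the ARF2 type Unigene18856 had 5.21, 9.02 and 8.17 RPKM. The ARF3/4 type Unigene53740 had 19.6, 15.7 and 14.0 RPKM.

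Enzymes of auxin conjugation and release were few. The hydrolase Unigene10021, with a poplar IAA-amino acid hydrolase 5 hit, had 365, 105 and 58 reads (59.7, 17.2 and 9.50 RPKM in the dormant, reactivating and active libraries). It was 3.48-fold lower in the reactivating (2.79 to 4.36) and 6.29-fold lower in the active (4.76 to 8.44) than in the dormant library. A hydrolase 4 piece (Unigene10110, named after its values were seen) had 21, 6 and 13 reads. The GH3.5 amido synthetase (Unigene460), which makes auxin conjugates, had 36, 71 and 64 reads and was 1.97-fold higher in the reactivating than in the dormant library (1.30 to 3.03), just under the 2-fold line. So the hydrolase with enough reads was highest in the dormant library and the synthetase lowest there.

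**Figure D4:**
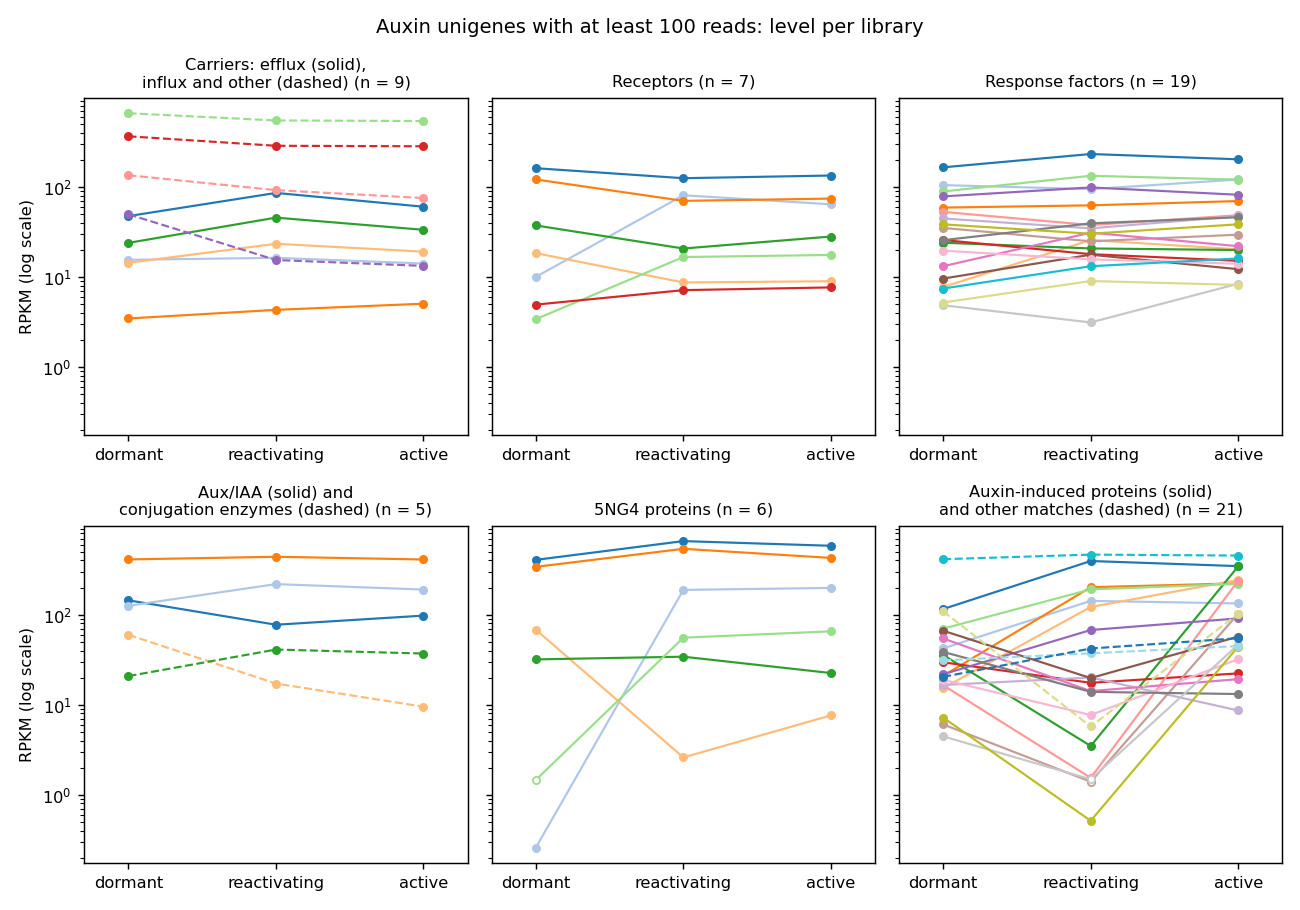
RPKM on a log axis (y) in the dormant, reactivating and active library (x) for the 67 auxin unigenes described, 1 line per unigene. Filled points are measured levels and open points are 0 reads, drawn at the RPKM of 3 reads. Lines in the response factor panel run nearly level, while the auxin-induced panel has both upward and V-shaped lines.

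The 5NG4 proteins are membrane proteins related to the nodulin MtN21 family, first described as auxin-induced in loblolly pine. Of 6 measured between the reactivating and dormant libraries, 2 (33.3%) were higher and 1 (16.7%) lower in the reactivating library. The shares of all unigenes were 16.9% and 13.8%. Unigene54524 had 1, 729 and 766 reads at the dormant, reactivating and active stage (0.259, 189 and 198 RPKM), and its reads covered 7.41%, 99.24% and 99.55% of its 661 bases. Unigene45986, with the same pine hit, had 0, 114 and 134 reads. Taking 3 reads for the 0, this is 37.99-fold more in the reactivating than in the dormant library (interval from 30.4 upward). Both were at most 1 read in the dormant library and level between the reactivating and active libraries, with active over reactivating at 1.05 (0.949 to 1.17) and 1.18 (0.910 to 1.52).

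The other pair with this pine hit behaved otherwise. Unigene26643 (406, 657 and 583 RPKM in the dormant, reactivating and active libraries) and Unigene23901 (340, 539 and 427 RPKM) are pieces of 183 and 169 bases and stayed within 2-fold. Unigene9585, a putative 5NG4 protein with a castor bean hit, ran opposite to Unigene54524. It had 341, 13 and 38 reads, was 26.2-fold lower in the reactivating than in the dormant library (15.1 to 49.8) and was 2.93-fold higher in the active than in the reactivating library (1.52 to 5.99). Unigene55472, also with a castor bean hit, had 31.9, 34.1 and 22.5 RPKM.

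Auxin-induced proteins differed in both directions. Of 14 measured between the reactivating and dormant libraries, 6 (42.9%) were higher and 6 (42.9%) lower in the reactivating library. The shares of all unigenes were 16.9% and 13.8%. Of 17 measured between the active and reactivating libraries, 7 (41.2%) were higher and 1 (5.88%) lower in the active library. Here the shares of all were 6.76% and 5.14%. The class had 1849, 4191 and 6232 reads at the dormant, reactivating and active stages. Within it, the 13 auxin induced-like proteins, all named after Picea sitchensis proteins, had 12 members with at least 50 reads, and each of the 12 was set apart in at least 1 stage, beside 26.9% of all unigenes. Of these, 4 (33.3%) were lowest in the dormant library, beside 12.9% of all unigenes. A further 6 (50%) were lowest in the reactivating library, beside 2.73%, and 2 (16.7%) were highest in the dormant library, beside 8.10%. Among the 6, Unigene10183, Unigene11714, Unigene45720 and Unigene10182 reached 50 reads only through the active library.

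Of those lowest in the dormant library, Unigene55109 had 480, 1639 and 1437 reads (116, 395 and 346 RPKM), 3.41-fold higher in the reactivating than in the dormant library (3.08 to 3.79). Unigene50965 had 59, 568 and 627 reads and was 9.63-fold higher (7.35 to 12.8). Unigene37913 was 2.73-fold higher (2.17 to 3.45) and Unigene50446 was 3.10-fold higher (2.301 to 4.23). The active library was within 2-fold of the reactivating one for all 4.

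The 2 unigenes for auxin-induced protein 2 of Pinus taeda followed the same course. Unigene56629 had 42.3, 142 and 133 RPKM in the dormant, reactivating and active libraries. Unigene52060 had 15.3, 122 and 243 RPKM and was 7.96-fold higher in the reactivating than in the dormant library (5.86 to 11.0), with a further step of 1.997-fold (1.76 to 2.27) in the active over the reactivating library that falls just short of the 2-fold line. With edgeR or DESeq2 scaling this step lies past it.

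The reactivating library was the low one for the other branch. Unigene10183 had 32, 0 and 463 reads (16.4, 0 and 238 RPKM in the dormant, reactivating and active libraries). Taking 3 reads for the 0, it was 10.7-fold lower in the reactivating than in the dormant library (interval from 8.19 upward). It was 155-fold higher in the active than in the reactivating library (interval from 125 upward). Unigene11714 had 13, 0 and 220 reads, and Unigene45720 had 9, 0 and 94 reads. Unigene10182 had 14, 1 and 86 reads, with the same length of 333 bases and the same best hit as Unigene10183. A count of 0 allows up to 3 reads, or 1.54 RPKM for Unigene10183. For these 4 the active library was 6.15 to 16.9-fold above the dormant one.

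Unigene955 had 59, 24 and 100 reads and Unigene42139 had 114, 34 and 98 reads at the dormant, reactivating and active stages, a shallower dip of 2.46-fold (1.51 to 4.13) and 3.35-fold (2.27 to 5.07) in the reactivating against the dormant library. Unigene47136 had 119, 31 and 42 reads and Unigene49836 had 100, 36 and 34 reads, low in both growing stages. The best hit did not separate the courses. A single Picea sitchensis protein was the best hit of Unigene55109 and Unigene37913, lowest in dormancy, of Unigene11714, lowest in reactivation, and of Unigene49836, highest in dormancy.

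**Figure D5:**
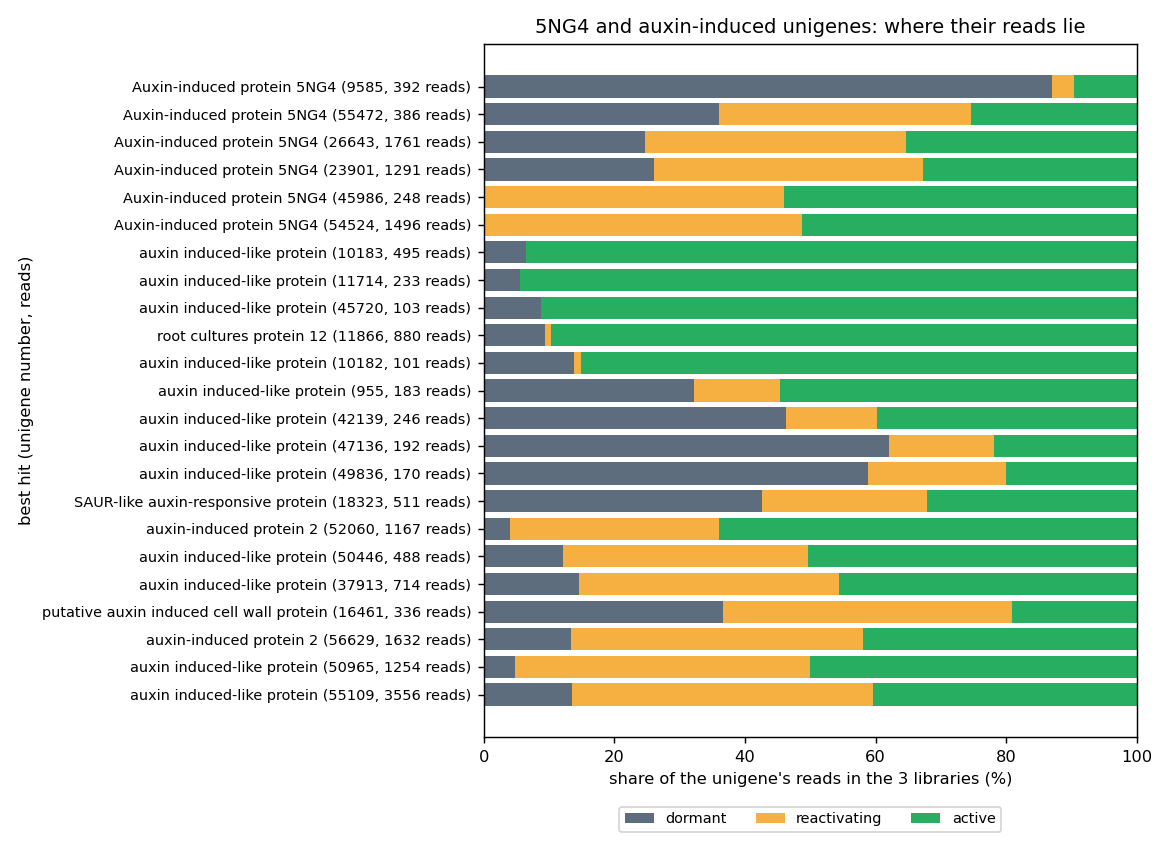
Share of each unigene's reads (x axis, percent) that lay in the dormant, reactivating and active library, for the 5NG4 and auxin-induced unigenes with at least 100 reads (unigene number and total reads in the labels). Unigene10183, Unigene11714 and Unigene45720 have no reactivating segment, and Unigene54524 and Unigene45986 have nearly no dormant one.

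A unigene named after Auxin-induced in root cultures protein 12, a membrane-linked cytochrome b protein in Arabidopsis, showed the same dip. Unigene11866 had 82, 8 and 790 reads (35.7, 3.48 and 344 RPKM in the dormant, reactivating and active libraries). It was 10.3-fold lower in the reactivating than in the dormant library (4.97 to 24.5) and 98.9-fold higher in the active than in the reactivating library (49.9 to 230). An auxin-responsive-like protein (Unigene58533, of the group without a clear role in the name) had 855, 45 and 802 reads. There the active and dormant libraries were alike, at 102 and 109 RPKM, and the reactivating library was 19.0-fold below the dormant one (14.1 to 26.3).

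The summed reads of the differentiating xylem markers were also lowest in the reactivating library, at 7951, 4881 and 31008 for the dormant, reactivating and active stages. The list was split. Of the 63 with at least 50 reads, 27 (42.9%) lay below both others in the reactivating library, beside 2.73% of all unigenes. Another 22 (34.9%) lay below both others in the dormant library, beside 12.9% of all. Between the reactivating and dormant libraries 22 of 60 measured (36.7%) were higher and 26 (43.3%) lower in the reactivating library. The shares of all unigenes were 16.9% and 13.8%. The median log2 ratio of the list was 0.22. The laccases had 3511, 911 and 13191 reads and the cellulose synthases 3381, 2356 and 15753, while the cinnamyl alcohol dehydrogenases had 774, 859 and 1134 and the xylem serine proteinases 285, 755 and 930. The phloem list, at 2395, 1386 and 2012 reads, was also lowest in the reactivating library. The part of other tissue in the dip of the auxin-induced unigenes was not tested.

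The rest of the class differed less. The SAUR-like protein (Unigene18323), of the small auxin up RNA family, had 29.6, 17.5 and 22.3 RPKM in the dormant, reactivating and active libraries. A putative auxin-induced cell wall protein with a Pinus pinaster hit (Unigene16461) had 123, 149 and 64 reads and was the 1 auxin member at least 2-fold lower in the active than in the reactivating library, by 2.33-fold (1.72 to 3.17). Among names without a clear class, auxin resistant 1 protein (Unigene25156, 175 bases) had 413, 465 and 454 RPKM. This name can stand for the influx carrier AUX1 or for another protein, so Unigene25156 may belong with the influx carriers. The auxin RESPONSE 4 unigene (Unigene54192), of a protein that in Arabidopsis helps place AUX1 in the membrane, had 31.1, 37.2 and 44.8 RPKM. An auxin responsive family-like protein (Unigene52130) was 2.06-fold higher in the reactivating than in the dormant library (1.52 to 2.83), and with edgeR or DESeq2 scaling it lies under 2-fold.

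Gene ontology terms were given for 68 of the 88 members (77.3%), against 38.7% of all unigenes. These terms come with the same annotation as the names and are not independent of them. The series has 11 unigenes with the term hormone binding, and 8 of them are members, of which 5 are receptors and 2 influx carriers. The term for hormone-mediated signaling was held by 27 members, among them 9 response factors and 6 receptors.

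Pathway genes without an auxin name were looked up by their own names. The synthesis list held 9 unigenes, of which 1, embryonic flower 2, was taken by the plant genus Yucca and not by the YUCCA enzyme. Of these 9, 0 were beyond 2-fold among the 6 measured between the reactivating and dormant libraries. Of all unigenes, 16.9% were higher and 13.8% lower in the reactivating library. An anthranilate synthase beta subunit (Unigene11463), of the tryptophan pathway that feeds auxin synthesis, had 80, 153 and 133 reads at the dormant, reactivating and active stages, 1.91-fold higher in the reactivating than in the dormant library (1.45 to 2.54). The list for perception and degradation, searched by names such as SKP1, cullin and RUB1, had 4 unigenes. Of the 3 measured between the reactivating and dormant libraries, 0 were beyond 2-fold, beside the same 16.9% and 13.8% of all. A Cullin 4 name (Unigene56801) held 57.4% of the list's reads, while a Cullin-1 piece had 2, 0 and 0 reads. The RUB1 conjugating enzyme (Unigene53492) had 155, 147 and 117 RPKM. A part of these in the TIR1/AFB complex was not tested.

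ABC transporter names, a family in which some members move auxin, gave 10 unigenes. Of 8 measured between the active and dormant libraries, 4 (50%) were higher and 1 (12.5%) lower in the active library. The shares of all unigenes were 18.1% and 13.8%. Unigene58309 had 226, 423 and 548 reads and was 2.43-fold higher in the active than in the dormant library (2.07 to 2.85), and the P-glycoprotein Unigene55219 had 55, 102 and 170 reads and was 3.09-fold higher (2.27 to 4.27). Both were higher at each later stage, each step being under 2-fold. The rest of the 5 with at least 100 reads were highest in the dormant library. Unigene14793 had 340, 270 and 288 reads and Unigene47776 188, 126 and 98, both within 2-fold. Unigene52689 had 72, 27 and 31 reads and was 2.32-fold lower in the active than in the dormant library (1.503 to 3.66). The remaining higher unigenes had at most 85 reads. Between the reactivating and dormant libraries 1 of 8 was higher and 1 lower in the reactivating library, beside 16.9% and 13.8% of all.

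The list of response genes by other names had 10 unigenes with few reads. Between the reactivating and dormant libraries 3 of 5 measured (60%) were lower and 0 higher in the reactivating library. The shares of all unigenes were 13.8% and 16.9%. An LOB domain protein (Unigene57658), of a plant transcription factor family with auxin-regulated members, had 346, 137 and 116 reads and was 2.53-fold lower in the reactivating than in the dormant library (2.07 to 3.10). The other pair, named after their values were seen, were LOB domain protein 1 (Unigene6012) with 56, 0 and 0 reads and a SAUR family protein (Unigene3573) with 17, 4 and 8 reads. These 3 were highest in the dormant library, but other LOB and SAUR pieces of the list were not. Unigene32640, with the same hit as Unigene57658, had 21, 13 and 28 reads. The SAUR family pieces Unigene12884 and Unigene39810 had 0, 7 and 10 reads and 1, 5 and 6 reads. They too were named after their values were seen.

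Outside the text search, 81 unigenes carried a gene ontology term that names auxin, with 7136, 9211 and 10598 reads at the dormant, reactivating and active stages. Of 59 measured, 9 (15.3%) were higher and 6 (10.2%) lower in the reactivating than in the dormant library, beside 16.9% and 13.8% of all unigenes. Of 57 with at least 50 reads, 1 (1.75%) lay below both others in the reactivating library, beside 2.73% of all. Unigene53213, an ABC transporter of the MDR family, had 84.7, 230 and 289 RPKM. Unigene53657, with a Picea sitchensis hit of unknown function, had 25, 351 and 436 reads and was 14.0-fold higher in the reactivating than in the dormant library (9.35 to 22.0). Others went the other way. Unigene46713, the 1 lowest in the reactivating library, had 103, 17 and 49 reads, 6.06-fold lower there than in the dormant library (3.61 to 10.8). A putative spermine synthase (Unigene19016) had 307, 303 and 113 reads, and the abundant Unigene58495 had 650, 446 and 487 reads.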

How the data were processed

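Each deposited table lists the unigenes with a read in 1 library. Per the file headers, the count is of uniquely mapped reads (whole and not normalised), RPKM is that count scaled by unigene length and library total, and coverage is the percent of the unigene's length with reads. The sources used here name no assembler or mapper. Unigenes absent from a table were given 0 reads. The deposited RPKM equalled count over length and total to a relative tolerance of 1e-06.

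Ratios are of deposited RPKM, with Clopper-Pearson 95% intervals from the counts, computed in Python 3.11.15 with scipy 1.17.1. They cover counting error only, since PCR copies are not independent molecules. Where a library had 0 reads, 3 reads took their place (0.513 RPKM at 1 kilobase). The interval of such a fold has no upper end, and its lower end can lie below the fold. The filters were 20 reads per pair of libraries for ratios, 50 reads for the 3-stage pattern and 100 reads for named unigenes, which rests on the sum over all 3 libraries. The scripts were tested on simulated data. Classes follow the best-hit description. Scaling by edgeR 4.0.16 TMM factors and DESeq2 1.42.0 size factors, other filters, a 4-fold line, length and summing by best hit were tried as alternatives. From the lists of pathway genes outside the search, the 2 with the most reads and the largest ratios each way may be named. The members, lists and classes were chosen with earlier results of these data known. The totals over all 88 members hold 3 members that are not reported here.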

Additional observations from a re-analysis of the deposited data

How the results depend on the processing

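No paired analysis was possible because each stage has 1 library, and for the same reason no library could be left out. Scaling by edgeR TMM or DESeq2 factors moved the median of all unigenes by -0.07 and -0.06 (log2) for reactivating over dormant, which put it at -0.01 with TMM against 0.07 unscaled, and the summed member reads came to 1.23 with either, while active over reactivating came to 1.17 with either. Of 70 unigenes with at least 100 reads, scaling changed the call of Unigene52130 (reactivating over dormant) and Unigene52060 (active over reactivating). For reactivating over dormant, the count higher was 9 at a 4-fold line and 10 with reads summed by best hit. The count lower was 8 with a minimum of 100 reads, 4 at 4-fold, 8 with the interval wholly beyond 2-fold and 6 among unigenes of at least 500 bases. The median log2 ratio was 0.0986 with no minimum and 0.0999 by best hit, and the summed ratio was 1.33 at 500 bases and 1.37 without the unclassed names. For active over reactivating, the count higher was 7 with a minimum of 100 reads, at 4-fold, with the interval beyond 2-fold and by best hit, and 4 at 500 bases. The count lower was 2 with no minimum, and 0 at 4-fold and with the interval beyond 2-fold, and the summed ratio was 1.06 at 500 bases and 1.09 without the unclassed names. For active over dormant, the count higher was 12 at 500 bases and 13 by best hit, the count lower was 2 at 4-fold and 3 with the interval beyond 2-fold, the median was 0.26 by best hit, and the summed ratio was 1.41 at 500 bases and 1.49 without the unclassed names. For these counts of higher and lower members, shares of all unigenes at the same settings were not computed. The alternatives for the 3-stage pattern were chosen after seeing the data. The number lowest in the dormant library was 9 of 73 at 4-fold (12.3%, beside 5.53% of all). By best hit it was 9 of 41 (22.0%, beside 11.6%), and at 500 bases 11 of 41 (26.8%, beside 12.5%). The number lowest in the reactivating library was 5, 6 and 3 under these settings, the number highest in the active library was 3 by best hit and 0 at 500 bases (2.79% of all such unigenes), so that the members' share lies below that of all there and above it otherwise, and the number highest in the dormant library was 1 at 4-fold. The cause was not tested beyond the stricter line or the fewer unigenes these settings leave. Depth limits the 18 members under 100 reads most, where intervals are wide and 0 reads allow up to 3.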
